A study of Mus musculus with 14 samples.

Results

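The interferon-linked PARP family genes described here are Parp1, Parp9, Parp10, Parp11, Parp12, Parp14, Zc3hav1 (which encodes PARP13) and Dtx3l, the gene of the ubiquitin ligase that partners PARP9. They were chosen by name, with the genotype difference of Parp14 and other results of these arrays already known, and comprise 8 of the 24908 genes tested. RNA from the spleen of 14 mice was labelled with Cy3 and hybridized to Agilent one-colour arrays, 1 array per mouse. The mice were 7 wild-type (WT) C57BL/6 animals and 7 Sting gt/gt animals, which are homozygous for the golden ticket allele of Sting (Tmem173gt), made in C57BL/6 by the chemical mutagen ENU. The labels give the mice an age of 10-14 weeks, in the methods the age at which arthritis was induced, and every mouse had received complete Freund's adjuvant (CFA) with chicken type II collagen (CII) 2 weeks before, so no uninjected animal enters any comparison. The Sting gt/gt colony came from another laboratory and the WT mice from a supplier, and the study's methods describe lysis of red cells from spleen suspensions.

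Replicates 1 to 3 of both genotypes were scanned on 1 day (scan day 1, 6 arrays) and replicates 4 to 7 on another (scan day 2, 8 arrays). Each of 2 slides scanned on day 1 held both genotypes, with too few arrays for values within a slide. On scan day 2 the WT arrays lay on slides 4 and 5 and every Sting gt/gt array on slide 6, so slide and genotype cannot be told apart on that day. The first principal component carried 43.0% of the variance and separated the scan days. The 75th percentile of the processed signal was 587 at the lowest, 662 at the median and 766 at the highest in WT arrays, and 562, 660 and 697 in Sting gt/gt arrays. Between 31117 and 34400 probes were well above background on a WT array and between 30781 and 33620 on a Sting gt/gt array. Levels below are log2 processed signals relative to the 75th percentile of the same array, which is 0 on this scale. A level belongs to its probe and is not comparable with the level of another probe.

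PARP enzymes take ADP-ribose from NAD+ and attach it to proteins or nucleic acids. PARP1 builds long poly(ADP-ribose) chains at broken DNA, whereas most of the interferon-induced members attach single units or, like PARP13, attach none. Several of them restrict virus replication, and macrodomains, the ADP-ribose binding modules of PARP9 and PARP14, are also carried by some viruses. STING is the adaptor that passes on the detection of cytosolic DNA by cGAS, and its signaling leads to type I interferon, which induces many of these genes through STAT and IRF transcription factors. Splenic macrophages, dendritic cells and lymphocytes can all respond to interferon.

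The probe of Sting1 gave 2.35, 2.64 and 2.85 as the lowest, median and highest level in WT mice and 2.45, 2.65 and 2.77 in Sting gt/gt mice. The groups overlapped, with a difference (Sting gt/gt minus WT) of 0.04 (SE 0.10). The golden ticket allele is a point mutation, so the amount of Sting1 RNA does not check the genotype labels.

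Parp14 encodes a macrodomain mono-ADP-ribosyltransferase known as a coactivator of STAT6 in the interleukin-4 response. Of its 2 probes, the one with the higher average signal is used as the main probe. On that probe the lowest, median and highest level was 2.53, 2.64 and 2.96 in WT mice and 2.11, 2.44 and 2.62 in Sting gt/gt mice. Each of the 7 Sting gt/gt mice lay below the WT median, and 0 WT mice lay below the Sting gt/gt median, although the groups overlapped. The means were 2.67 ± 0.15 (SD, n = 7) in WT and 2.38 ± 0.17 (SD, n = 7) in Sting gt/gt, a difference of -0.28 (SE 0.10). RNA was taken from whole spleen cells, and fewer cells of a type and less RNA per cell cannot be told apart in this or any later value.

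On scan day 1 the Parp14 ranges did not overlap, with WT mice between 2.53 and 2.64 and Sting gt/gt mice between 2.11 and 2.44. These are 3 mice against 3, and the share of all genes without overlap on that day was not counted. Nothing is read from the gap, since Parp14 was chosen with its genotype difference known. On scan day 2 the ranges overlapped, and the difference was -0.27 against -0.30 on scan day 1. WT replicate 7 was the highest of the 14 mice at 2.96, and without it the difference was -0.23. The deposited log2 table gave -0.30.

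The other Parp14 probe did not show this difference. It was well above background on each of the 14 arrays and gave 0.22, 0.72 and 1.18 in WT mice and -0.14, 0.72 and 1.1 in Sting gt/gt mice. Its difference was -0.011 (SE 0.18), made of -0.43 on scan day 1 and 0.31 on scan day 2. Both probes carry the same RefSeq accession, yet across the mice they correlated at r = -0.358 once the means of each genotype on each scan day were removed. Averaging the 2 probes moved the Parp14 difference to -0.15. The value of -0.28 thus belongs to a single probe.

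**Figure D1:**
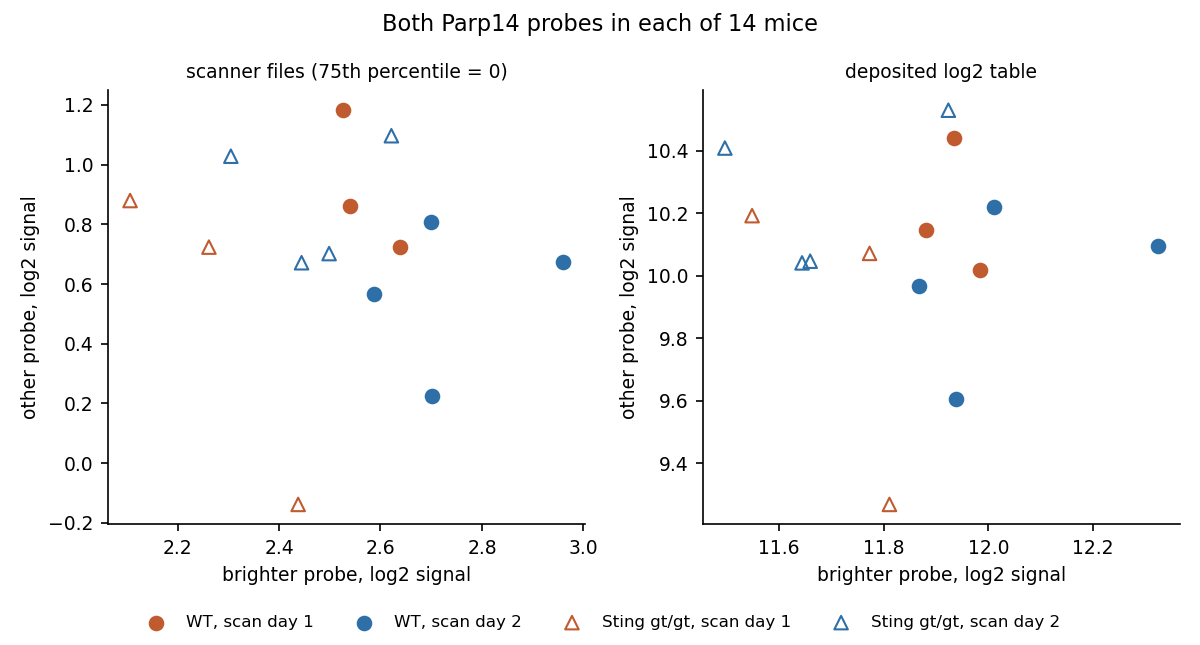
Both Parp14 probes in the 14 mice, with the log2 signal of the main (brighter) probe on the x axis and of the other probe on the y axis, from the scanner files (left, array's 75th percentile = 0) and from the deposited log2 table (right). Filled circles are WT mice and open triangles Sting gt/gt mice, coloured by scan day. The triangles lie to the left, at 2.11 to 2.62 on the left panel against 2.53 to 2.96 for WT, but not lower, and Sting gt/gt replicate 1 is the lowest point on the y axis at -0.14.

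Parp9 and Dtx3l encode a complex of a macrodomain protein and an E3 ubiquitin ligase that works in DNA repair and in interferon signaling. Parp9 had a lowest, median and highest level of 1.54, 1.91 and 2.12 in WT mice and of 1.62, 1.87 and 2.01 in Sting gt/gt mice. Dtx3l had 1.48, 1.58 and 1.81 in WT mice and 1.52, 1.62 and 1.82 in Sting gt/gt mice. The groups overlapped over nearly their whole range for both genes. The differences were -0.018 (SE 0.11) for Parp9 and -0.0021 (SE 0.09) for Dtx3l. Both were below 0 on scan day 1 (-0.18 and -0.08) and above 0 on scan day 2 (0.11 and 0.05). A further Parp9 probe was well above background on 6 of 14 arrays, 4 of them WT and 2 Sting gt/gt, and was not tested.

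These genes neighbour each other. In the RefSeq annotation of mouse assembly GRCm38.p6, Hspbap1, Parp14, Dtx3l, Parp9 and Kpna1 follow one another on chromosome 16, and the spans of Dtx3l and Parp9 overlap. The difference of -0.28 at Parp14 thus stood beside differences of -0.0021 at Dtx3l and -0.16 (SE 0.14) at Hspbap1.

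Parp10 and Parp11 encode mono-ADP-ribosyltransferases without macrodomains. Parp10 gave 3.50, 3.82 and 3.95 as the lowest, median and highest level in WT mice and 3.52, 3.75 and 3.93 in Sting gt/gt mice. The ranges nearly coincided, with a difference of 0.02 (SE 0.10), made of -0.12 on scan day 1 and 0.12 on scan day 2.

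For Parp11, a transferase that localizes to the nuclear envelope, the main probe gave -0.90, -0.31 and 0.06 in WT mice and -1.12, -0.69 and -0.14 in Sting gt/gt mice. Its mean was -0.44 ± 0.39 (SD, n = 7) in WT and -0.63 ± 0.34 (SD, n = 7) in Sting gt/gt, a difference of -0.18 (SE 0.19). The groups overlapped, and the difference was below 0 on scan day 1 (-0.11) and on scan day 2 (-0.24). Without WT replicate 7 it was -0.10. Most of the spread lay between scan days. On scan day 1 the 6 mice lay between -1.12 and -0.77, and on scan day 2 the 8 mice lay between -0.69 and 0.06. The other Parp11 probe, with signals between 36.1 and 71.6, gave a genotype difference of -0.12 (SE 0.13), made of -0.30 on scan day 1 and 0.014 on scan day 2.

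Parp12 and Zc3hav1 encode PARPs with CCCH zinc fingers that bind RNA. PARP13, the zinc finger antiviral protein, lacks transferase activity and directs CpG-rich viral RNA to decay. Zc3hav1 gave 0.62, 0.87 and 0.96 as the lowest, median and highest level in WT mice and 0.32, 0.71 and 0.90 in Sting gt/gt mice. Of the Sting gt/gt mice, 6 of 7 lay below the WT median, and the groups overlapped. The difference was -0.19 (SE 0.10), with -0.33 on scan day 1 and -0.08 on scan day 2.

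Parp12 gave -2.16, -1.46 and -1.04 in WT mice and -1.91, -1.61 and -1.38 in Sting gt/gt mice. The Sting gt/gt values fell inside the WT range, with a difference of -0.08 (SE 0.18), made of 0.04 on the first scan day and -0.17 on the second.

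The promoters of Parp11, Parp12 and Dtx3l are shown because, among the pairs of members that both have an entry, Parp12 with Dtx3l and Parp12 with Parp11 had the highest correlations from mouse to mouse, as described further on. RefSeq promoter entries of GRCm38.p6 matched 5 of the 8 members with 6 entries, and Parp9, Parp10 and Parp14 had none. Each window runs from 250 bases before the transcript's start to 50 after it, 5′ to 3′. The Parp11 window is chr6:127446590-127446889 on the + strand, the Parp12 window chr6:39118300-39118599 on the - strand and the Dtx3l window chr16:35938978-35939277 on the - strand. Capitals mark matches, on either strand, to GAAANNGAAA, the core letters of an interferon-stimulated response element, and to TTCNNNGAA, the core letters of a STAT site.
Parp11: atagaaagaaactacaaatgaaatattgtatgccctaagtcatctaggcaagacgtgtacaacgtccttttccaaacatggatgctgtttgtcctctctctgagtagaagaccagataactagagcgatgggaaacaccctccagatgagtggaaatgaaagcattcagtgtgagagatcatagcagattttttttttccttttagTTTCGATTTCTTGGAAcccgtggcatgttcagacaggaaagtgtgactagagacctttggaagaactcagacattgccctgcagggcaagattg
Parp12: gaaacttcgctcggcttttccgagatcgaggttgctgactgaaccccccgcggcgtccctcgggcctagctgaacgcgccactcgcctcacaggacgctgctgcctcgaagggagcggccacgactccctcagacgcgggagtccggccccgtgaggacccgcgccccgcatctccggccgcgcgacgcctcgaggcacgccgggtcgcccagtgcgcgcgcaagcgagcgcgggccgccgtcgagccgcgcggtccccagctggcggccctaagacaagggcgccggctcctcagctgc
Dtx3l: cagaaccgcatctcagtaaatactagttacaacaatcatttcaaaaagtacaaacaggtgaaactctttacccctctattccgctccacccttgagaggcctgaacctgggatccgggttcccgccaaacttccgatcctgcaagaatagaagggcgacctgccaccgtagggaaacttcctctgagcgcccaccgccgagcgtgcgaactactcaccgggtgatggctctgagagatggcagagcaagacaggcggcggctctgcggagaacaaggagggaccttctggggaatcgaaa
The Parp11 window holds TTTCGATTTC at position -44 and TTCTTGGAA at position -37 relative to the start, and these matches overlap by 3 letters. The other 5 entries, the second Parp11 start included, hold neither set of letters. Of 32851 RefSeq promoters, 3.44% hold the first motif and 8.30% the second. A match or its absence describes the letters of this window and says nothing about binding.

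Parp1 encodes the main sensor of DNA strand breaks in the family. It gave -0.45, 0.67 and 1.04 as the lowest, median and highest level in WT mice and -0.44, 0.66 and 1.05 in Sting gt/gt mice. The genotypes spanned the same range, with a difference of 0.04 (SE 0.28), whereas the scan days did not overlap. The 6 mice of scan day 1 lay between -0.45 and 0.26 and the 8 of scan day 2 between 0.66 and 1.05.

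**Figure D2:**
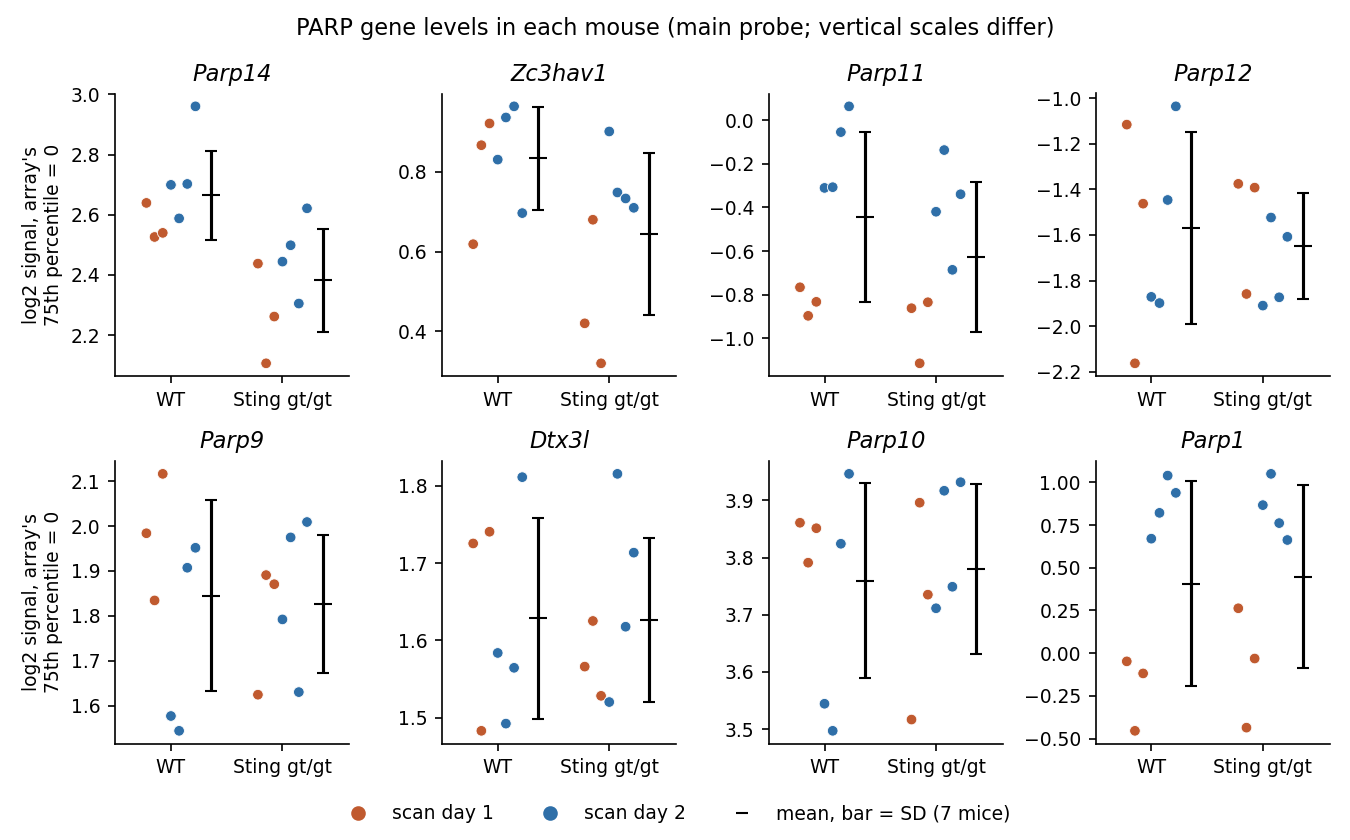
Level of each of the 8 genes in each mouse (main probe, log2 signal with the array's 75th percentile = 0 on the y axis, WT and Sting gt/gt on the x axis), with points coloured by scan day and the mean and SD of 7 mice beside them. The Sting gt/gt points of Parp14 lie between 2.11 and 2.62, each below the WT median of 2.64, while Parp1 and Parp11 split by colour.

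Relative to WT, 6 of the 8 genes were lower in Sting gt/gt mice and 2 higher. Their median difference was -0.05, beside 45.5% lower and a median of 0.02 over the 24908 genes. Leaving out WT replicate 7 gave 3 lower and 5 higher and a median of 0.0056, and leaving out WT replicate 2 gave a median of -0.14. No scaling between arrays, the deposited table or slide as a random block gave 8 lower and 0 higher. Without scaling the median over all genes moved too, from 0.02 to -0.04, so nothing is read from that count. The median over all genes was 0.011 in the deposited table and 0.02 with slide as a random block. Parp14, Zc3hav1 and Parp11 were lower on both scan days, and the other 5 genes had opposite signs on the 2 days. The order of the differences from Parp14 (-0.28) through Zc3hav1 (-0.19), Parp11 (-0.18), Parp12 (-0.08), Parp9 (-0.018), Dtx3l (-0.0021) and Parp10 (0.02) to Parp1 (0.04) has steps between neighbours smaller than their standard errors.

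In limma's fit over the genes, 867 genes (3.48%) passed an unadjusted p of 0.05 between genotypes, 403 of them (1.62%) lower in Sting gt/gt, and 1 of the 8 members, Parp14, was among these. With the replicate block, which pairs mice of the same number, 1415 genes passed. The count was 1812 with scan day as a block, 444 with slide as a random block and 1928 in the deposited table, and without Sting gt/gt replicate 1, 5 or 6 it was 1968, 539 or 496. WT and Sting gt/gt did not overlap for 11 genes (0.0442%) and for 0 members. With the mean of its probes Parp14 missed the unadjusted threshold. Zc3hav1 passed it under 3 of 26 alternatives, namely the deposited table, slide as a random block and without Sting gt/gt replicate 4. Nothing is read from the members' counts, since the values of this contrast were known when the genes were chosen. After Benjamini-Hochberg adjustment 1 gene passed, which was not a member and had no symbol in the RefSeq table used here. This count was 0 with median centring, no scaling or the replicate block, 2 with the mean of probes and 6 without WT replicate 4. A test of whether scan day changed the genotype difference gave an adjusted p below 0.05 for 190 genes (0.763%). For the members nothing is read from it, since the rule used their genotype differences on each scan day.

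**Figure D3:**
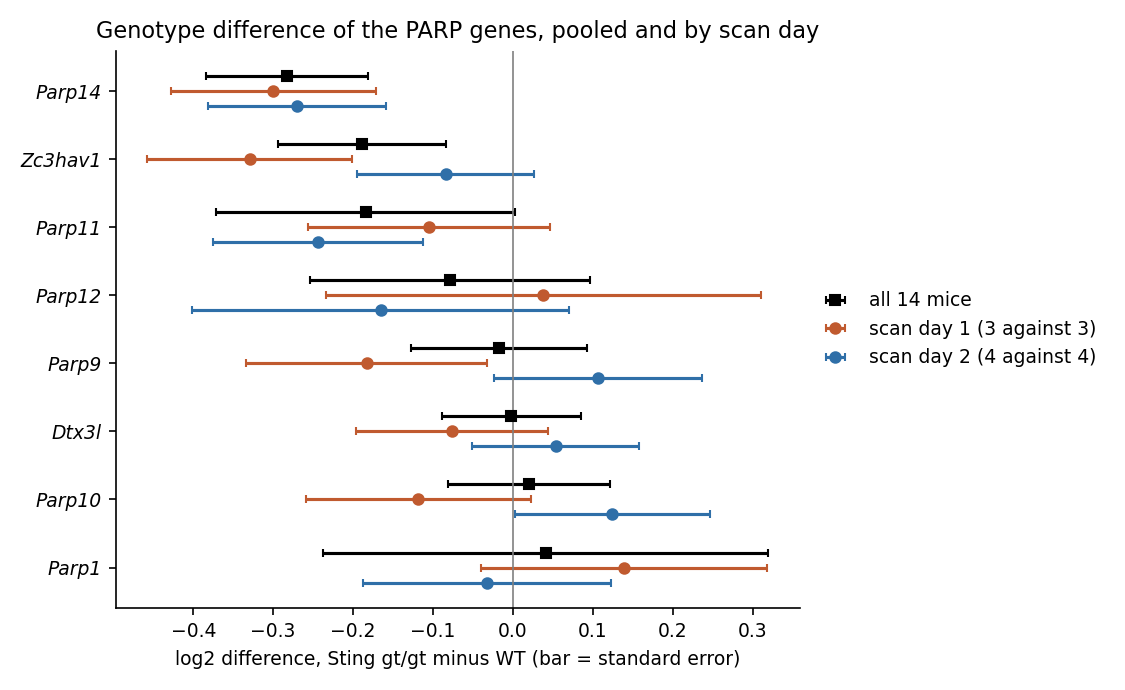
Genotype difference of the 8 genes on the x axis (log2, Sting gt/gt minus WT) with standard errors, for the 14 mice together (squares) and for each scan day (circles, 3 against 3 and 4 against 4 mice). Parp14 is at -0.28, -0.30 and -0.27, while Parp9, Dtx3l and Parp10 lie left of 0 on scan day 1 and right of 0 on scan day 2.

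The rule compares genotypes, over the 14 mice and on each scan day, and does not compare one scan day with the other, so that comparison could be tested. With genotype in limma's model, Parp1 was higher on scan day 2 by 0.99 (SE 0.12, adjusted p = 1.85e-05) and Parp11 by 0.61 (SE 0.10, adjusted p = 0.000279). Each was higher on scan day 2 in both genotypes, and for both the lowest mouse of scan day 2 was above the highest mouse of scan day 1. These 2 of 8 members stand against 9654 of the 24908 genes (38.8%), so their share is not above that of genes in general. How many of all genes had scan days without overlap was not counted. Parp14 (0.18, SE 0.08) and Zc3hav1 (0.18, SE 0.09) missed the threshold, at adjusted p = 0.0989 and 0.135.

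The scan-day calls depended on the scale. Centring each array on its median called Parp14 and Zc3hav1 as well, but it also moved the scan-day median of the genes tested from -0.013 to 0.17. In the deposited log2 table the scan days overlapped for both Parp1 and Parp11. The scan-day difference there was 0.03 for Parp1 and 0.017 for Parp11. In that table limma called 0 genes by scan day after adjustment and 348 before it, against 11773 before adjustment on the main scale. The other Parp11 probe gave -0.15 (SE 0.13, adjusted p = 0.385), and the mean of both Parp11 probes 0.23 (adjusted p = 0.0756). What separates the scan days, which differ in mice as well as in scanning, was not tested.

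**Figure D4:**
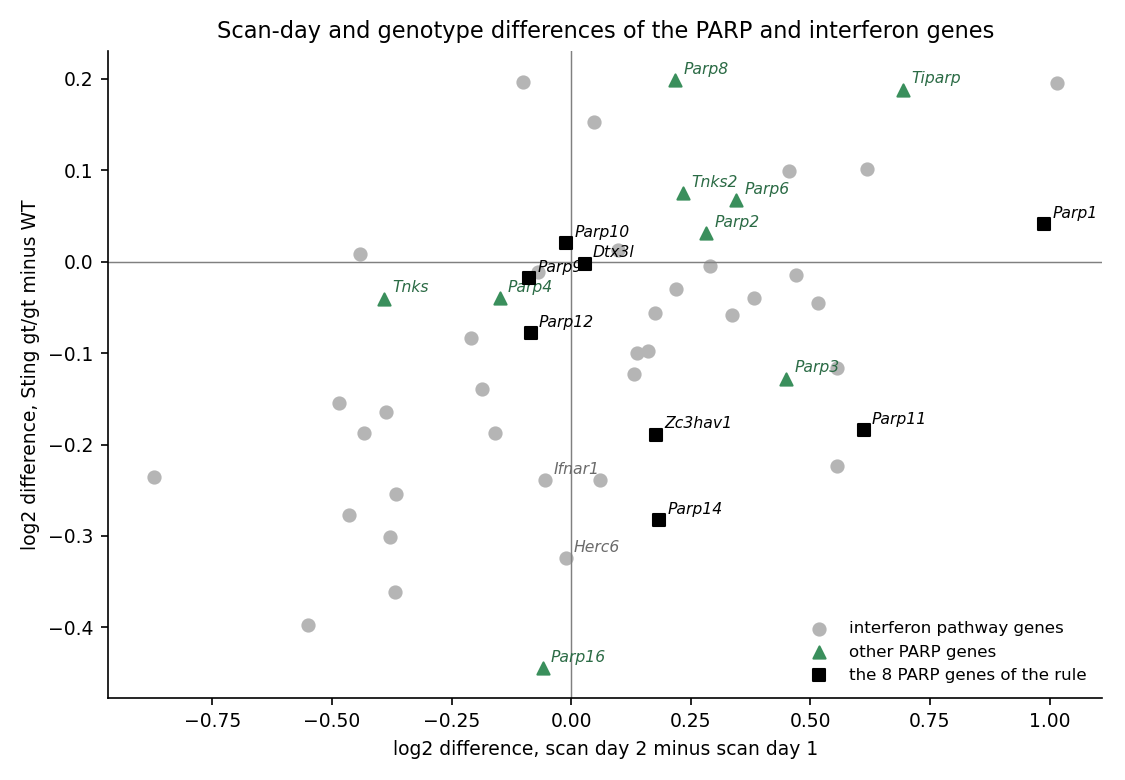
Scan-day difference (x axis, log2, day 2 minus day 1) against genotype difference (y axis, log2, Sting gt/gt minus WT) for the 8 genes (black squares), the 9 other PARP genes (green triangles) and the interferon pathway genes (grey circles). Parp1 lies far right at 0.99 and near 0 on the y axis, Parp14 and Parp16 lie low at -0.28 and -0.44, and most grey circles lie below 0.

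The 9 other PARP genes, which are not known chiefly for interferon induction, comprised 4 that were lower and 5 that were higher in Sting gt/gt than in WT mice (median difference 0.03). Past an unadjusted p of 0.05 there was 1 of the 9 (11.1%, beside 3.48% over all genes), Parp16. Parp16 encodes a transferase of the endoplasmic reticulum membrane that takes part in the unfolded protein response. Its mean was -0.65 ± 0.29 (SD, n = 7) in WT and -1.10 ± 0.30 (SD, n = 7) in Sting gt/gt. The difference of -0.44 (SE 0.16) did not pass after adjustment over the genes tested (limma, adjusted p = 0.9998). Scan day 1 gave -0.16, and scan day 2, on which slide and genotype coincide, gave -0.66. With slide as a random block it was -0.27 and missed the unadjusted threshold too. Differences were 0.20 for Parp8, 0.19 for Tiparp and -0.13 for Parp3, and those of Parp2 (0.03), Parp4 (-0.04), Parp6 (0.07), Tnks (-0.04) and Tnks2 (0.08) were smaller. Leaving out WT replicate 3 moved Tiparp to 0.07 and Parp6 to 0.0093, and leaving out WT replicate 7 moved Parp3 to -0.04. Without WT replicate 2 Parp4 was at -0.005, and Parp2, Tnks and Tnks2 crossed 0 under some alternatives. By scan day, 5 of the 9 passed an adjusted p of 0.05, beside 38.8% of the genes tested, and 0 did in the deposited table. On the main scale Tiparp (0.69), Parp3 (0.45), Parp6 (0.34) and Parp2 (0.28) were higher and Tnks (-0.39) lower on scan day 2.

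Cofactors of PARPs and genes whose products remove or read ADP-ribose showed 0 calls between genotypes among 11 tested, beside 3.48% over all genes. In Sting gt/gt mice 3 of these were lower and 8 higher, and the median was 0.10. The direction turned between the scan days, with 7 lower and a median of -0.11 on the first and 1 lower and a median of 0.15 on the second, on which slide and genotype coincide. The largest differences were those of Macrod2 (0.20, SE 0.14) and Adprs (0.20, SE 0.12), hydrolases that take ADP-ribose off proteins, and of Chd1l (0.13, SE 0.14), a chromatin remodeller that binds poly(ADP-ribose). Macrod2 ran from 0.06 to 0.26 over the 26 alternatives. Adprs passed an unadjusted p of 0.05 with scan day as a block and in the deposited table. Chd1l was at -0.27 on scan day 1 and 0.43 on scan day 2 (limma, interaction, adjusted p = 0.0836) and at -0.016 with slide as a random block.

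The NAD+ genes, which supply or consume the substrate, also had 0 calls among 12, beside the same 3.48%, with 4 lower, 8 higher and a median of 0.05. Naprt was at -0.22 (SE 0.17) and Qprt at 0.21 (SE 0.12), both enzymes of NAD+ synthesis, and Bst1, an NAD+ glycohydrolase, at 0.16 (SE 0.21), but at 0.03 without WT replicate 3 or with a random block for slide. Past an unadjusted p of 0.05 came Qprt in the deposited table and Naprt (-0.33) without Sting gt/gt replicate 1. Over the 26 alternatives Naprt ran from -0.33 to -0.08. Among 8 partners of PARP9, PARP13 and PARP14, 4 were lower and 4 higher with 0 calls and a median of 0.03, made of -0.05 on scan day 1 and 0.09 on scan day 2. The exosome subunits Exosc7 and Exosc5 were at 0.13 (SE 0.12) and 0.11 (SE 0.09), and Exosc5 ran from 0.05 to 0.13 over the 26 alternatives. Exosc7 was lower on scan day 1 (-0.21) and higher on scan day 2 (0.38; limma, interaction, adjusted p = 0.129), and at -0.012 with a random block for slide.

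Of the 37 listed interferon pathway genes, 35 were tested, and Mx1 and Mx2 had no probe matched. In Sting gt/gt mice 28 of them were lower and 7 higher, and their median was -0.10 against 0.02 over the genes tested. Among 7 receptor and kinase genes 3 were lower, among 6 transcription factor genes 5, and among 22 target genes 20. The targets had a median of -0.15, with -0.19 on scan day 1 and -0.08 on scan day 2, and 15 of them were lower on both days, as were 4260 of the 24908 genes tested. The members' median of -0.05 lay between that of the targets and that of the genes tested. It was 0.0056 without WT replicate 7 and -0.14 without WT replicate 2. Nothing is read from its place, since the values of this contrast were known when the members were chosen.

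Past an unadjusted p of 0.05 there were 2 interferon genes (5.71%, beside 3.48% over all genes), both lower, and 4 with scan day as a block or in the deposited table, Isg15 among them and each lower. At these settings the share over all genes rose as well, to 7.27% and 7.74%. Herc6, a ligase for the ubiquitin-like protein ISG15, was at -0.32 (SE 0.12). Ifnar1, a chain of the type I interferon receptor, was at -0.24 (SE 0.10), and neither passed after adjustment (limma, adjusted p = 0.9998 for each). With slide as a random block both missed the unadjusted threshold (Herc6 -0.25, Ifnar1 -0.19), as Ifnar1 did over the mean of its probes (-0.14) and without Sting gt/gt replicate 5 (-0.18). The widest differences were those of Isg15 (-0.40, SE 0.20) and Ifit1 (-0.36, SE 0.21), which missed the threshold, although Isg15 passed it under 10 of 26 alternatives. Leaving out Sting gt/gt replicate 1 raised the count from 2 to 6 genes, 5 lower and 1 higher, and leaving out replicate 2 of that genotype raised it to 4, while the share over all genes rose to 7.90% and 4.81%.

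Variation between mice of the same group was larger than the genotype difference for most members, and part of it was shared. After the 4 means of genotype and scan day were removed, 20 of the 28 pairs of members correlated above 0 over the 14 mice, with a median Pearson r of 0.483 and a median Spearman rho of 0.475. Parp9 and Parp10 were the most strongly correlated pair (r = 0.887, rho = 0.864), with r = 0.891 without the 2 mice farthest from the median. The relation was seen in WT mice (r = 0.917) and in Sting gt/gt mice (r = 0.848). Ranked among 24907 genes, Parp10 was number 11 for Parp9, and Parp9 was number 8 for Parp10. Some pairs were above 0 in WT mice and below 0 in Sting gt/gt mice. Examples are Parp1 with Parp10 (r = 0.609 and -0.671) and Parp14 with Parp10 (0.826 and -0.264). Others, such as Parp11 with Parp12 (0.844 and 0.828), were above 0 in both. The share of pairs above 0 in other sets of genes was not counted.

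On its main probe Parp14 gave r = 0.763 with Parp11 (rho = 0.802, 0.733 without the 2 farthest mice) and r = 0.720 with Parp12 (rho = 0.846, 0.620 without the 2 farthest). With its neighbour Dtx3l it gave r = 0.524 (rho = 0.560, 0.315 without the 2 farthest). Dtx3l and Parp12 gave r = 0.75 (rho = 0.732, 0.649 without the 2 farthest), with 0.897 in WT and 0.387 in Sting gt/gt mice. Parp11 and Parp12 gave r = 0.747 (rho = 0.798, 0.853 without the 2 farthest). Parp1 gave r = 0.697 with Parp12 (0.717 without the 2 farthest) and 0.648 with Parp11 (0.628), and Dtx3l with Parp11 gave 0.555 (0.219). The partners Parp9 and Dtx3l gave r = 0.675 (rho = 0.604, 0.637 without the 2 farthest). Differences in r between pairs or between genotypes were not tested, and the points share arrays, scaling and slides.

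Once the 4 means were removed, Zc3hav1 ran the other way. Its 7 pairs with the other members were then below 0, with a median r of -0.385, while the 21 pairs without it had a median of 0.603. This depended on the means, since 3 of the 7 were above 0 with scan-day means alone removed (median -0.034) and 5 with none removed (median 0.031). Its strongest pairs were with Parp12 (r = -0.654, rho = -0.688) and Parp14 (r = -0.626, rho = -0.613). With scan-day means alone removed, the pair with Parp14 turned to r = 0.182, while that with Parp12 was -0.448. The median r over the 28 pairs was 0.314 with scan-day means removed, 0.311 with no means removed and 0.511 in the deposited table. Without WT replicate 7 it was 0.290.

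**Figure D5:**
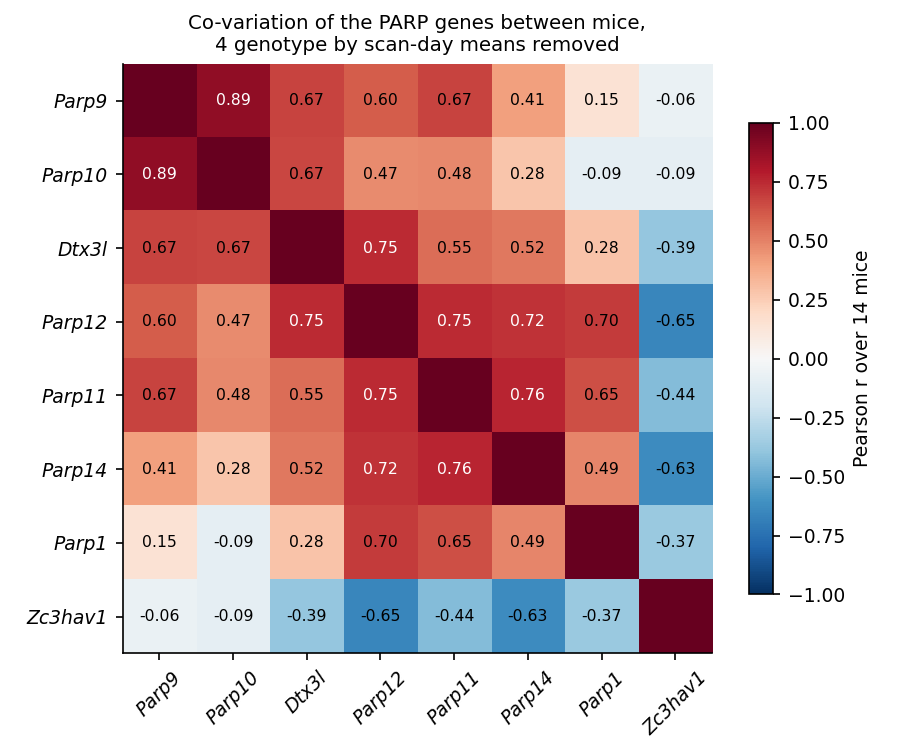
Pearson r over the 14 mice between each pair of the 8 genes, written in each square and coloured from -1 (blue) to 1 (red), after the 4 genotype by scan-day means were removed. Parp9 and Parp10 form the darkest red square at 0.887, and the squares of Zc3hav1 are blue, down to -0.654 with Parp12.

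The genes most like each member were found by the same measure over 14 mice. Parp9 ran closest to Irgm1 (r = 0.952) and Gstz1 (0.919), Parp10 to Ifitm3 (0.929) and Psmb10 (0.922), and Dtx3l to Zbp1 (0.896) and Gbp10 (0.871). Irgm1, Ifitm3, Psmb10, Zbp1 and Gbp10 are known interferon-induced genes. Parp12 ran closest to Surf2 (0.961) and Lgals9 (0.942), Parp14 to Kifc3 (0.900) and Flvcr2 (0.868), and Parp11 to Pomc (0.893) and Cog8 (0.890). For Parp1 the closest were Slc38a10 (0.963) and Lrrc14 (0.962), and Usp31 (0.929) was among the closest to Zc3hav1. With 10 degrees of freedom and 24907 genes ranked, high values of r occur for any gene.

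The median r with the 35 interferon pathway genes, which does not depend on picking the highest, was 0.71 for Parp9, 0.588 for Parp10 and 0.490 for Dtx3l. It was 0.453 for Parp12, 0.418 for Parp11, 0.415 for Parp14, 0.0728 for Parp1 and -0.170 for Zc3hav1. The median r with the 24907 genes lay between -0.010 and 0.011 for each member. How the median r with the 35 interferon pathway genes spreads over all genes tested was not counted. Whether the members' values differ from those of other genes was therefore not tested, and no link particular to the members is read from them.

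Markers of spleen cell types were measured, and probes of Alb, Ins2 and Myh6, genes of liver, pancreas and heart, were well above background on 0 to 2 of the 14 arrays. The summed linear level of the 6 B cell markers, of which Cd79b was brightest, was 74.1, 93.0 and 134.6 at the lowest, median and highest in WT mice and 74.6, 85.2 and 117.6 in Sting gt/gt mice. Each of the 6 was lower in Sting gt/gt mice (median -0.20), although higher on scan day 1 (0.25) and lower on scan day 2 (-0.51). The 4 plasma cell markers, led by Jchain, summed to 72.0, 75.9 and 93.2 in WT and to 60.9, 100.4 and 138.1 in Sting gt/gt mice. Of these 1 was lower, and the median was 0.17, with -0.14 on scan day 1 (3 lower) and 0.44 on scan day 2 (1 lower). For 1 of the 4 limma's test of a change in the genotype difference with scan day passed an adjusted p of 0.05. The 4 erythroid markers, led by Slc4a1, summed to 248, 277 and 357 in WT and to 183, 220 and 414 in Sting gt/gt mice. These 4 were lower, with a median of -0.36. Each of the 4 was lower on both scan days, with medians of -0.19 on scan day 1 and -0.47 on scan day 2. In limma's fit 1 of the 4 passed an unadjusted p of 0.05 (25%, beside 3.48% over all genes), and 0 passed after adjustment.

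The 5 T cell markers (Cd3d brightest) summed to 11.8, 15.7 and 19.5 in WT and to 13.9, 16.0 and 19.4 in Sting gt/gt mice, and the median difference was 0.04. The 3 NK cell markers (Nkg7) summed to 6.82, 8.28 and 9.40 and to 6.70, 10.5 and 13.0, with 0 lower and a median of 0.24. The 4 macrophage and monocyte markers (Csf1r) summed to 68.4, 75.8 and 93.0 and to 64.0, 82.9 and 97.4, with a median of 0.019. The 4 dendritic cell markers (Siglech) summed to 39.2, 49.9 and 156.5 and to 35.1, 39.7 and 181.7, with a median of 0.014. Siglech, which weighs most in this sum, was lower on scan day 2 by 2.21 (limma, adjusted p = 1.05e-08), while the list's median by scan day was 0.10. The 2 platelet markers (Pf4) summed to 52.4, 60.9 and 81.9 and to 49.4, 67.9 and 72.8, with a median of 0.08. Of 4 neutrophil markers 3 had a probe, not Ly6g. They (S100a9 brightest) summed to 363, 440 and 829 and to 350, 472 and 1004 with a median genotype difference of 0.07, and each of the 3 was lower on scan day 2, with a median of -1.07. The median genotype difference turned from 0.06 on scan day 1 to -0.05 on scan day 2 for T cells, from 0.10 to -0.013 for macrophages and monocytes and from -0.10 to 0.21 for platelets.

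Across the mice, with the 4 means removed, 8 of 72 correlations between a member and a marker list lay beyond 0.5 or -0.5 (11.1%), beside 28.7% of the same correlations over all genes tested, so their number is no result about the members. Parp14 correlated with the neutrophil markers at r = -0.700, Parp1 with the erythroid markers at 0.627 and Parp11 with the plasma cell markers at -0.537. Zc3hav1 was at -0.631 with the macrophage and monocyte markers and at -0.534 with the B cell markers. With the T cell markers Parp9 was at -0.562 and Parp10 at -0.503, and Parp10 was at -0.546 with the dendritic cell markers. The part of cell composition in the differences and correlations of the PARP genes was not tested.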

How the data were processed

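Spleen RNA of 7 WT and 7 Sting gt/gt mice was measured on 14 one-colour arrays of 62976 spots. The spot values are intensity readings that, per the file headers, Agilent Feature Extraction 11.0.1.1 made from the scans and corrected for background. The authors also deposited a log2 table of the same arrays, with medians between 5.49 and 5.52, which correlated with the scanner log2 values at 0.997 to 0.999 per array. Its scale is thus log2, but its centring and normalization method are not given in the sources used here. Well-above-background and outlier flags (other values) came with the files as deposited.

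The members, the gene lists and the alternatives were chosen with earlier results of these data known. Accessions of 32989 of 56605 probes (58.3%) matched a symbol in the RefSeq table of GRCm38.p6. Flagged spots were left out, spots of a probe averaged, and log2 signals expressed relative to the array's 75th percentile. Kept were probes with 7 or more of 14 arrays well above background (31766 probes), including 10 of the 11 member probes, and the brightest stood for its gene (24908 genes, each of the 8 members among them). Genotype and scan day were tested with limma 3.58.1 (lmFit, eBayes) in R 4.3.3, with Benjamini-Hochberg adjustment, after a test on simulated data. Python 3.11.15 with numpy 2.4.6 and pandas 2.3.3 served for the tables, and matplotlib 3.10.9 for drawing. Genes were named by rule: the members and Sting1, the other PARP genes, of each list the genes past an unadjusted p of 0.05 and the 3 largest differences, the 2 most similar genes per member, and the brightest marker of each cell type. Some genes that this rule names are not reported here. The number of arrays limits the precision. The study gives 7 mice per group, and each array was taken as 1 mouse.

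Arrays of the 2 genotypes with the same number deviated together (r between 0.155 and 0.533). A fit that pairs them, the replicate block, was therefore run as an alternative, while the main genotype fit had no block. With the means of each genotype on each scan day removed, r ran from -0.407 to 0.248. What part scan day has in the pairing was not tested. Alternatives were other scalings, normexp background correction (on median spot signals), the deposited table, other filters and probe rules, blocks for scan day, slide and replicate number, the methods' t-test, the Mann-Whitney U test and leaving out each array. Leaving out each array for the correlations was added after seeing the data.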

Additional observations from a re-analysis of the deposited data

Results flagged for a closer look

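Among 114 groups of 7 mice looked at, 4 had a mouse whose gap to the next, divided by the group's range, passed Dixon's critical value for groups of this size, a share that chance alone gives in about 5% of groups. On the main Parp14 probe WT replicate 7 was highest at 2.96, with the next WT mouse at 2.70 (ratio 0.594). The same mouse was highest for Kifc3, the gene most like Parp14 across mice, at -2.75 with the next at -3.30 (ratio 0.582). Sting gt/gt replicate 1 was lowest for the other Parp14 probe at -0.14 with the next at 0.67 (ratio 0.656), and lowest for Parp8 at 0.47 with the next at 0.89 (ratio 0.585). Without WT replicate 7 the Parp14 difference was -0.23 in place of -0.28. Without Sting gt/gt replicate 1 the Parp8 difference was 0.28 in place of 0.20 and passed an unadjusted p of 0.05.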

How the results depend on the processing

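Shifts were measured against each gene's SD among the 7 WT mice, a spread that includes scan day. This SD was 0.60 for Parp1 and 0.39 for Parp11. Over the 14 mice, with the 4 genotype by scan-day means removed, it was 0.22 and 0.18. The genotype difference of each of the 8 members moved by less than 1 SD among WT mice under each of 26 alternatives. Parp14 (-0.34 to -0.15), Zc3hav1 (-0.26 to -0.13) and Parp11 (-0.27 to -0.10) were below 0 under each, whereas Parp1 (-0.10 to 0.19), Parp9 (-0.11 to 0.03), Dtx3l (-0.06 to 0.03), Parp10 (-0.05 to 0.06) and Parp12 (-0.18 to 0.011) crossed 0. The members' median of -0.05 ran from -0.14 (without WT replicate 2) to 0.0056 (without WT replicate 7) when 1 array was left out. Genes called between genotypes numbered 867 (403 lower, 464 higher), and 1928 in the deposited table, 1812 with scan day as a block, 1415 with the replicate block (0 adjusted, as with median centring or no scaling, against 1 on the main scale, 2 with the mean of probes and 6 without WT replicate 4), 444 with slide as a random block and 496 to 1968 when 1 array was left out (539 and 496 without Sting gt/gt replicates 5 and 6, 1968 without replicate 1). The split was 568 lower to 250 higher with median centring, 614 to 149 without scaling, 525 to 423 with quantile normalization and 292 to 502 with normexp. The methods' t-test called 997 genes (1 adjusted) and the Mann-Whitney U test 715 (0 adjusted). Genes called by scan day numbered 9654 (4266 up, 5388 down), 0 in the deposited table, 14590 with no filter on dim probes, where more genes are tested, and 8229 to 9665 when 1 array was left out. The split was 7839 up to 3370 down with median centring and 5574 to 4545 with quantile normalization. Members called by scan day numbered 2, and 4 with median centring, 1 with the mean of probes, 0 in the deposited table and 2 to 2 when 1 array was left out. Other PARP genes called between genotypes numbered 1, and 1 to 2 when 1 array was left out, but 0 with a random block for slide. By scan day they numbered 5, and 0 in the deposited table. Calls of the ADP-ribose list went from 0 to 1 in the deposited table and with scan day as a block, those of the NAD+ list from 0 to 1 in the deposited table and without Sting gt/gt replicate 1, and those of the partners stayed at 0. Interferon genes called numbered 2, and 4 in the deposited table, 4 with scan day as a block, 1 with the mean of probes, 0 with slide as a random block and 1 to 6 when 1 array was left out. Over 572 alternatives of 22 other named genes, 5 lost and 16 gained a call and 0 changed sign after a call. Isg15 gained it in 10. The replicate block changed no other call than Isg15's among the named genes. The cause of these changes was not tested. Signals near background limit what the dim probes can show.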
